A study of Sus scrofa with 8 samples.

Results

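MYF5, MYOD1, MYF6 and MYOG are the 4 myogenic regulatory factors, and their transcripts were followed across 8 bulk RNA sequencing libraries of limb muscle tissue from pig embryos. The 4 genes were taken by symbol, and each matched 1 Ensembl identifier among the 22516 rows of the count table and was among the 17020 genes that were tested. Wild-type embryos were compared with embryos knocked out for MYF5, MYOD1 (written MYOD in the labels) and MYF6, at embryonic day 41 (E41) and embryonic day 62 (E62), with 2 libraries for each of the 4 groups. MYOG was not a target of the knockout. The growth protocol gives the later stage as E60 and the series title writes knockdown; sample titles and characteristics give E62 and knockout, which are used here. The edited alleles are not described in the labels, so which part of each targeted gene was lost is not given in the sources used here.

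The 4 factors are DNA-binding proteins of the basic helix-loop-helix (bHLH) class. They bind E-box motifs as dimers with widely expressed E proteins, and ID proteins block them by taking up the E proteins. MYF5 and MYOD1 commit progenitors to the muscle lineage, MYF6 (also called MRF4) acts in commitment and again in maturing fibres, and MYOG drives myoblasts into terminal differentiation. In limb muscle the progenitors migrate in from the somites under PAX3 and switch the factors on after arrival.

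On the Sscrofa11.1 assembly (RefSeq) the 4 genes lie at 3 loci. MYF5 (ENSSSCG00000000937) spans positions 100753440 to 100755558 of chromosome 5. MYF6 (ENSSSCG00000026533) lies beside it, from 100762918 to 100764771, and 7.36 kb separate the pair. MYOD1 (ENSSSCG00000013375) spans 41422522 to 41424236 of chromosome 2. MYOG (ENSSSCG00000034654) spans 113783233 to 113785312 of chromosome 9.

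Total counts ranged from 23402052 to 60539245 per library, and 3 counts in a single library corresponded to 0.0443 to 0.145 CPM (the count scaled to a common library size with TMM factors). The summed level of 8 skeletal muscle markers (ACTA1, MYH3, MYH8, TNNI1, TNNI2, CKM, DES and PAX7) was 10100 to 12000 CPM in wild-type E41 and 27300 to 33500 CPM in wild-type E62, but 28.4 to 31.5 CPM in knockout E41 and 13.1 to 14.8 CPM in knockout E62. The knockout libraries therefore bear the label of a muscle tissue whose muscle markers were nearly gone. Markers of limb connective tissue (8 of 8 genes with a row) summed to 17100 to 27500 CPM in wild type and 38300 to 39700 CPM in knockout at E41, and to 20500 to 37000 and 67100 to 73100 CPM at E62. The sum of smooth muscle markers (6 of 6 genes) was lower in the knockout. It was 196 to 200 against 1050 to 1210 CPM at E41 and 351 to 367 against 1330 to 1370 CPM at E62. Of these 6 genes, 4 were lower and 0 higher at E41, and 4 lower and 1 higher at E62 (edgeR quasi-likelihood test, adjusted p under 0.05). Of all genes tested, 20.8% were lower at E41 and 26.2% at E62. Log2 differences of the 6 genes ran from -3.76 to 0.22 at E41 and from -4.75 to 1.23 at E62. The 7 cardiac muscle markers also summed lower, to 1.89 to 2.82 against 623 to 741 CPM at E41. At E62 they summed to 3.64 to 7.76 against 751 to 881 CPM. Which cells carried the transcripts of either list was not tested. The sum of blood markers (4 of 4) was higher, at 161 to 281 against 84.3 to 150 CPM at E41 and 285 to 348 against 85.8 to 152 CPM at E62. By the same test 1 of the 4 blood genes was higher at E41 and 3 at E62, against 18.5% and 21% of all genes. The knockout libraries of a stage lay far apart in cartilage markers at E41 (291 and 3630 CPM) and in skin markers at E62 (3.87 and 297 CPM, 2 of 4 genes with a row). The part of these differences in the results was not tested. In bulk tissue, fewer muscle cells and less RNA per muscle cell cannot be told apart. Each group's library names carry a number of their own, whose meaning is not stated, and wild-type E41 a limb code of its own (LHL against RHL). The knockout E62 names lack the ending L001 that all other names carry, and use S1 and S2 as the wild-type E41 names do. Whatever these parts stand for, and any difference in litter or preparation between groups, cannot be told apart from the group. Sample titles call the replicates biological without naming the animals, and p-values then measure the spread between these libraries.

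**Figure D1:**
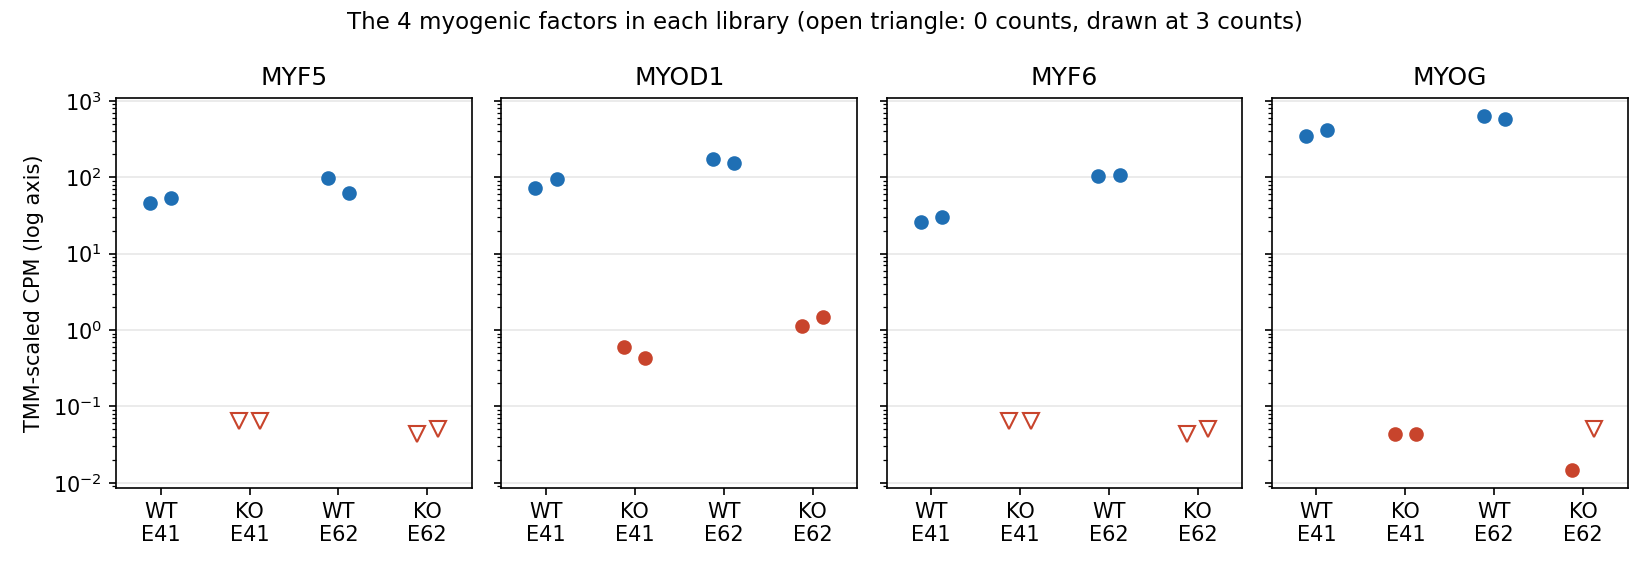
TMM-scaled CPM (log axis) of the 4 factors in each of the 8 libraries; filled points are libraries with counts, and open triangles are libraries with 0 counts, drawn at the level of 3 counts. All wild-type libraries lie at 25.6 CPM or above, MYF5 and MYF6 have no counts in any knockout library, and MYOD1 keeps 0.434 to 1.47 CPM there.

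MYF5, the earliest of the factors in the embryo, was present in both wild-type stages and absent from every knockout library. It stood at 45.8 and 53.8 CPM (948 and 1217 counts) in wild-type E41 and at 96.6 and 62.2 CPM (3213 and 2113 counts) in wild-type E62. All 4 knockout libraries had 0 counts, so the groups did not overlap at either stage. With 3 counts set as the floor of the knockout group, the E41 difference was at least 1542-fold lower (adjusted p = 0.00018 by edgeR's quasi-likelihood test). The E62 difference was at least 3374-fold lower (adjusted p = 6.5e-05). The depth of the knockout libraries and the wild-type level set these bounds, so they do not rank the stages.

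MYF6, its neighbour on chromosome 5, had the same pattern of presence with a different course in wild type. Levels were 25.6 and 29.7 CPM (530 and 672 counts) in wild-type E41 and 103 and 108 CPM (3436 and 3675 counts) in wild-type E62. Again all 4 knockout libraries had 0 counts. By the same floor its knockout level was at least 855.9-fold lower at the earlier stage (edgeR adjusted p = 2.9e-06). At the later stage it was at least 4504-fold lower (adjusted p = 7e-07). Complete absence of this kind was rare. Of 17020 genes tested, 24 had 0 counts in all 4 knockout libraries, and 4 of these reached 10 CPM in every wild-type library. They were MYF5, MYF6, YIPF7 and ENSSSCG00000061991, for which no symbol was found (a search made after the zero counts of MYF5 and MYF6 had been seen).

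MYOD1, a factor that can convert other cell types to muscle, fell far but did not vanish. Wild-type E41 libraries had 72.6 and 95.6 CPM (1503 and 2161 counts) and wild-type E62 libraries 172 and 153 CPM (5715 and 5203 counts). Knockout E41 libraries kept 0.603 and 0.434 CPM (28 and 20 counts), and knockout E62 libraries 1.14 and 1.47 CPM (77 and 88 counts). From highest to lowest the groups ran wild-type E62, wild-type E41, knockout E62 and knockout E41, with no overlap between neighbours in that order. The log2 change in the knockout was -7.33 ± 0.24 at E41 (SE, n = 2 per group, edgeR adjusted p = 9.9e-07) and -6.96 ± 0.22 for the later stage (adjusted p = 5.2e-07).

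MYOG, which is not named among the targets, came close to the absence seen for MYF5 and MYF6. It had 342 and 413 CPM (7079 and 9331 counts) in wild-type E41 and 637 and 579 CPM (21169 and 19654 counts) in wild-type E62. In the knockout it had 2 and 2 counts at E41 (0.0431 and 0.0434 CPM) and 1 and 0 counts at E62. The log2 change at E41 was -12.99 ± 0.27 (edgeR adjusted p = 9.4e-08). It rests on 4 counts in the knockout group, so this SE can be too small. Counting error alone gave a 95% interval of 0.00311% to 0.0292% of the wild-type level. At E62 the ratio of the groups was 77570-fold, with a 95% interval of 13920 to 3064000 from counting error alone (adjusted p = 4e-08). That ratio rests on 1 count in knockout E62 replicate 1. Without that library the log2 value, then a bound against 3 counts, was -13.57.

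All 4 factors were thus lower in the knockout at both stages, where 20.8% of all genes tested were lower at E41 and 26.2% at E62 (39.2% and 47.2% in either direction). Each of these 8 calls held in all 17 alternative analyses, which reuse the same libraries. MYF5, MYOD1 and MYF6 are the genes that were knocked out, so only the MYOG calls concern a gene that was not a target. Ranked by the pooled ratio of the groups with the floor of 3 counts, MYOG was the gene with rank 8 from the bottom among 17020 at E41 and rank 3 at E62. MYF5 had ranks 30 and 27, MYF6 42 and 21, and MYOD1 95 and 155. For MYF5 and MYF6 at both stages, and for MYOG at E62, the floor limits how low the rank can be.

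The share of the wild-type level that remained separates MYOD1 from the other factors, and as a share of each gene's own level it needs no gene length. MYOD1 remained at 0.613% of wild type at E41 (95% interval 0.451% to 0.815%, Clopper-Pearson, counting error only) and at 0.795% at E62 (0.678% to 0.927%). MYOG remained at 0.0114% at E41 (0.00311% to 0.0292%) and 0.00129% at E62 (3.26e-05% to 0.00718%). MYF5 and MYF6 had no knockout counts, and the upper bounds of the same interval were 0.0798% and 0.0365% for MYF5 and 0.144% and 0.0273% for MYF6 at E41 and E62. The limit of 3 counts used for the folds above corresponds to 0.0649% and 0.0296% for MYF5 and 0.117% and 0.0222% for MYF6. The MYOD1 intervals lay above those of the other 3 at both stages. MYF5, MYOD1 and MYF6 were targets of the knockout, and the reads left at each depend on what the edit removed. The edited alleles are not described, so whether the remaining MYOD1 reads come from an edited transcript cannot be told.

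What remained of MYOD1 was higher at the later stage. Between knockout E41 and knockout E62 it rose by 1.32 ± 0.25 on the log2 scale (edgeR adjusted p = 0.0086), where 12.1% of genes tested were higher and 30.1% changed in either direction. This call was lost with limma-voom (adjusted p = 0.12) and without knockout E41 replicate 2 (adjusted p = 0.06). Over the same interval MYOD1 rose by 0.95 ± 0.17 in wild type (adjusted p = 0.0042). The knockout effect itself was not shown to differ between the stages (difference 0.37 ± 0.30, adjusted p = 0.4, with 26.8% of genes past the threshold in that test, 11.2% with a positive and 15.5% with a negative difference). MYF5, MYF6 and MYOG had too few knockout counts for either comparison. Beside this rise, the progenitor factor PAX7 went from 84 and 18 counts in knockout E41 to 0 and 1 in knockout E62. The remaining counts of PAX7 were thus lower at E62 and those of MYOD1 higher, and which cells carried them was not tested.

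In wild type, 3 of the 4 factors passed the test for a rise from E41 to E62, against 19.8% of all genes higher and 39.8% changed in either direction. Mean levels at E41 and E62 were 49.8 ± 5.69 and 79.4 ± 24.3 CPM for MYF5 and 27.7 ± 2.92 and 106 ± 3.46 CPM for MYF6 (SD, n = 2). They were 84.1 ± 16.3 and 163 ± 13.2 CPM for MYOD1 and 377 ± 50.1 and 608 ± 40.9 CPM for MYOG. MYF6 rose most, by 1.93 ± 0.12 on the log2 scale or 3.82-fold (edgeR adjusted p = 0.00036), and 4.75% of genes had a larger fitted rise. MYOD1 rose 1.93-fold (values above) and MYOG by 0.69 ± 0.14 (adjusted p = 0.0067). MYF5 had a fitted difference of 0.67 ± 0.24, close in size to that of MYOG, and did not pass (adjusted p = 0.081). Its replicates were the least alike. Wild-type E62 replicate 2 stood at 0.644 of replicate 1 for MYF5, against 0.891 for MYOD1, 1.05 for MYF6 and 0.909 for MYOG. DESeq2 and limma-voom placed MYF5 past the threshold (adjusted p = 0.017 and 0.045), as did the fit without wild-type E62 replicate 2 (log2 1.03, adjusted p = 0.011). Without wild-type E62 replicate 1 the value was 0.39. In wild-type E41, replicate 2 was the higher library for all 4 factors, by 1.16-fold for MYF6 to 1.32-fold for MYOD1. The 31 classical targets described further on showed little of this, with 18 of 31 higher in replicate 2 and a median of 0.07 on the log2 scale. Markers of skeletal muscle and of other tissues also differed between the wild-type stages. The 8 skeletal muscle markers summed to 10100 to 12000 CPM at E41 and to 27300 to 33500 CPM at E62. From E41 to E62 the summed level of skin markers went from 370 to 552 CPM down to 9.35 to 9.51 CPM. Nerve and glia markers (5 of 6 genes with a row) went from 225 to 458 down to 29.3 to 47.9 CPM, and cartilage markers (5 of 5) from 249 to 899 down to 51.3 to 67.2 CPM. Their part in the rise of the factors was not tested.

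**Figure D2:**
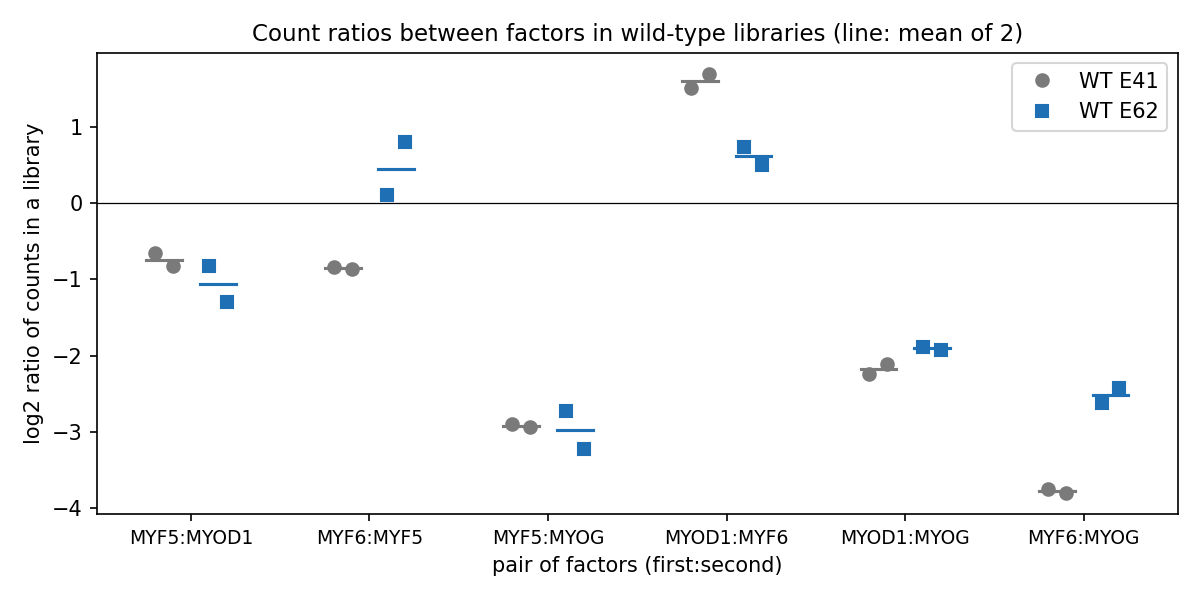
Log2 ratio of the counts of 2 factors within each wild-type library, for the 6 pairs; points are libraries and lines are means of 2. The 3 pairs with MYF6 shift between E41 and E62 by about 1 log2 unit or more, while MYF5:MYOG overlaps between the stages.

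Ratios between factors within a library do not depend on scaling, and their change needs no gene length. MYF6 gained on each of the other 3. The MYF6:MYF5 count ratio was 0.559 and 0.552 in the wild-type E41 libraries and 1.07 and 1.74 at E62, a mean log2 shift of 1.3. MYF6:MYOG went from 0.0749 and 0.072 to 0.162 and 0.187, a shift of 1.25. MYOD1:MYF6 went from 2.84 and 3.22 to 1.66 and 1.42, a shift of -0.98. None of these 3 pairs overlapped between the stages. All 3 share MYF6 and restate its larger rise in wild type, so they are not separate evidence.

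The pairs without MYF6 moved less. MYOD1:MYOG was 0.212 and 0.232 at E41 and 0.27 and 0.265 at E62, a shift of 0.27 without overlap. MYF5:MYOD1 was 0.631 and 0.563 at E41 and 0.562 and 0.406 at E62, so the nearest libraries of the stages all but met. MYF5:MYOG was 0.134 and 0.13 at E41 and 0.152 and 0.108 at E62 and overlapped. An exact permutation test of 2 against 2 libraries cannot give a two-sided p below 0.33, so these ratios carry no test. Groups without overlap reach that value and no lower.

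Over the 8 libraries the levels of the 4 factors were closely related, with Pearson's r of log2(CPM + 0.5) between 0.989 for MYF6 with MYOG and 0.999 for MYF5 with MYOG. All 8 points share the gap between wild type and knockout, which sets most of these values, and no p is given. Among 11909 genes with a symbol and a mean of at least 2 CPM, the 5 most like MYF5 were LRTM1 (r = 0.9998), MYOG, MYL5, CYB5R1 and JPT1. The nearest to MYOD1 were ABRA (0.9991), TRIM72 (0.9987), which reseals muscle membranes, APOBEC2, PKNOX2 and LMOD3. MYF6 was nearest to SLN (0.9999), the inhibitor of the sarcoplasmic calcium pump, and then to YIPF7, JSRP1, C4orf54 and FSD2. MYOG was nearest to SMYD1 (0.9997), a methyltransferase of myofibril assembly, then MYPN, MYL2, WDR44 and the cofactor VGLL2.

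The gene nearest to each factor can be set beside it. These genes were picked for likeness over the same 8 libraries. Traits they share with a factor follow in part from that choice and are no separate evidence of a link. SLN, nearest to MYF6, rose by 2.63 ± 0.12 from E41 to E62 in wild type (edgeR adjusted p = 0.00011), as 89.6 and 107 CPM became 590 and 624 CPM. LRTM1, nearest to MYF5, had 13.8 and 16.6 CPM at E41 and 26.7 and 16.9 CPM at E62 in wild type, with the lower E62 value in replicate 2, as for MYF5. ABRA, nearest to MYOD1, had 4 and 1 counts in knockout E41 and 17 and 20 in knockout E62. PKNOX2 kept 12.2 to 15.3 CPM in the knockout libraries, so likeness of pattern does not mean the same depth of fall.

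**Figure D3:**
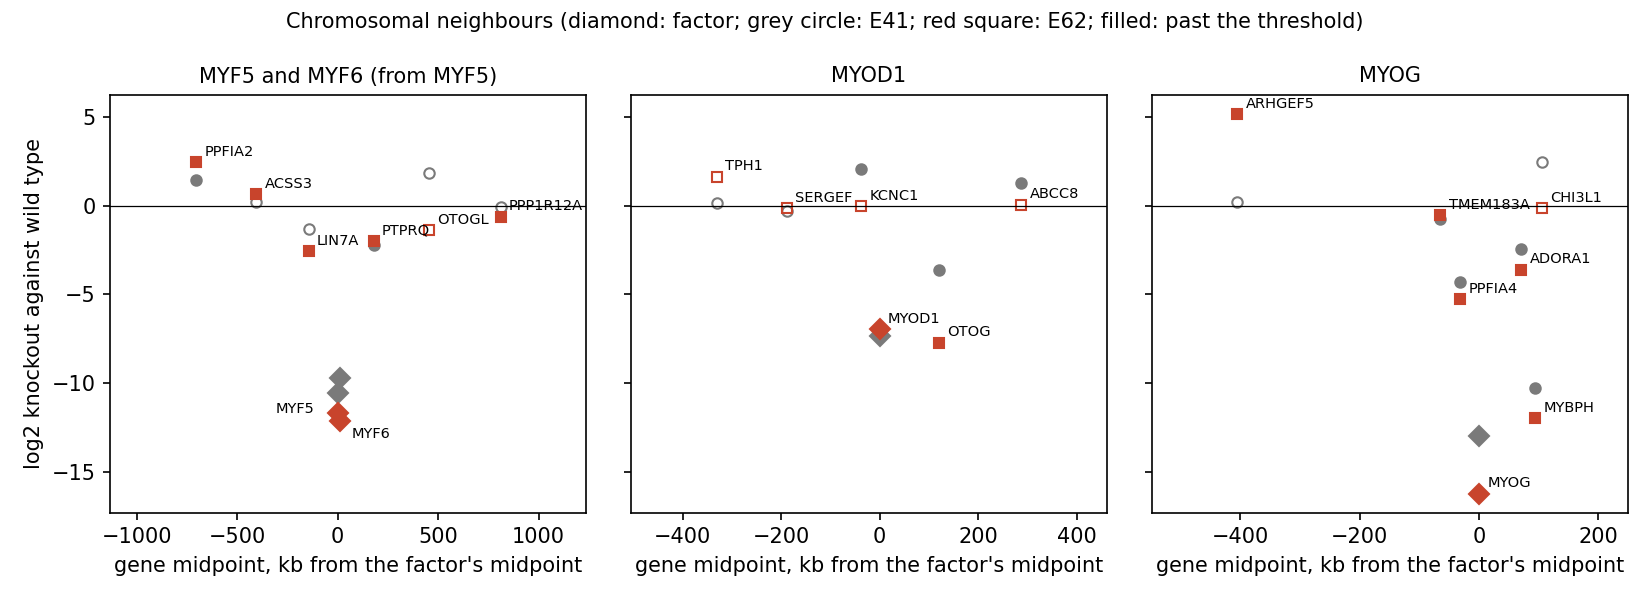
Log2 knockout against wild type for each factor (diamonds) and the protein-coding RefSeq genes nearest to it, by the distance of gene midpoints in kb; grey is E41, red is E62 and filled symbols passed the test. Where a group held 0 to 3 counts, the plotted value is the floor or the pooled ratio. Around MYF5 and MYF6 the flanking genes lie within 3 log2 units of 0, while MYBPH, 87.1 kb from MYOG, falls with it.

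The genes that flank MYF5 and MYF6 and passed the filter were still counted in the knockout. LIN7A, 66.7 kb to one side of MYF5, changed by -1.33 ± 0.48 at the earlier stage (edgeR adjusted p = 0.058) and by -2.56 ± 0.50 at the later one (adjusted p = 0.0044). PTPRQ, 22.3 kb beyond MYF6, changed by -2.22 ± 0.42 and -1.98 ± 0.39 (adjusted p = 0.0049 and 0.0046) and kept 17 to 85 counts in each knockout library. PPFIA2, further out on the side of LIN7A, rose by 1.42 ± 0.42 at E41 (adjusted p = 0.031) and by 2.46 ± 0.45 at E62 (adjusted p = 0.0032). Its E41 call was lost without any 1 of the 4 E41 libraries (adjusted p = 0.052 to 0.13). ACSS3, which overlaps PPFIA2, rose at E62 by 0.65 ± 0.15 (adjusted p = 0.0084), and OTOGL did not pass at either stage (adjusted p = 0.081 and 0.14).

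Around MYOD1 the nearest gene on the left, the potassium channel KCNC1 (14.6 kb), had 0 counts in wild-type E41 and was at least 4.213-fold higher in knockout E41, a call lost without any 1 of the 4 E41 libraries (adjusted p = 0.08 to 0.099). On the right OTOG (73 kb), an inner ear matrix protein, had 9 and 22 counts in wild-type E41 and 84 and 140 in wild-type E62, against 5 and 0 and 2 and 0 in the knockout. OTOG was 212.8-fold lower at E62 (95% interval 58.23 to 1768 from counting error alone, edgeR adjusted p = 0.0016). Its E41 call (adjusted p = 0.03) was lost without wild-type E41 replicate 2 (0.15), knockout E41 replicate 2 (0.1) or wild-type E62 replicate 2 (0.053), and with the replicate block (0.058). ABCC8, beyond it, rose by 1.26 ± 0.32 at E41 (adjusted p = 0.017), a call lost without wild-type E41 replicate 1 (0.084) or either knockout E41 library (0.059 and 0.071).

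Of the neighbours tested, the largest fall was that of MYBPH beside MYOG. PPFIA4, 5.46 kb away, changed by -4.32 ± 0.28 at E41 and -5.26 ± 0.29 at E62 (edgeR adjusted p = 7.3e-05 and 1.5e-05). MYBPH, a myosin-binding protein, went from 813 and 923 CPM to 0.667 and 0.717 CPM at E41, a change of -10.29 ± 0.28 (adjusted p = 2.2e-07), and changed by -11.99 ± 0.29 at E62. ADORA1, which lies 50 kb from MYOG and overlaps MYBPH on the assembly, changed by -2.45 ± 0.28 and -3.61 ± 0.29, and without a stated strand their reads may be shared. ARHGEF5, 389 kb away, rose by 5.17 ± 1.27 at E62 (adjusted p = 0.021), a call lost with limma-voom (0.16) and without wild-type E62 replicate 1 (0.13) or 2 (0.082). In all, 3 of the 17 neighbours tested, of 18 with a row, were higher and 6 lower at E41 (52.9% changed, against 39.2% of all genes). At E62, 3 were higher and 8 lower (64.7% changed, against 47.2%). TMEM183A (-0.54 ± 0.11) and PPP1R12A (-0.62 ± 0.13) lost their E62 calls with library-size scaling (adjusted p = 0.11 and 0.062).

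**Figure D4:**
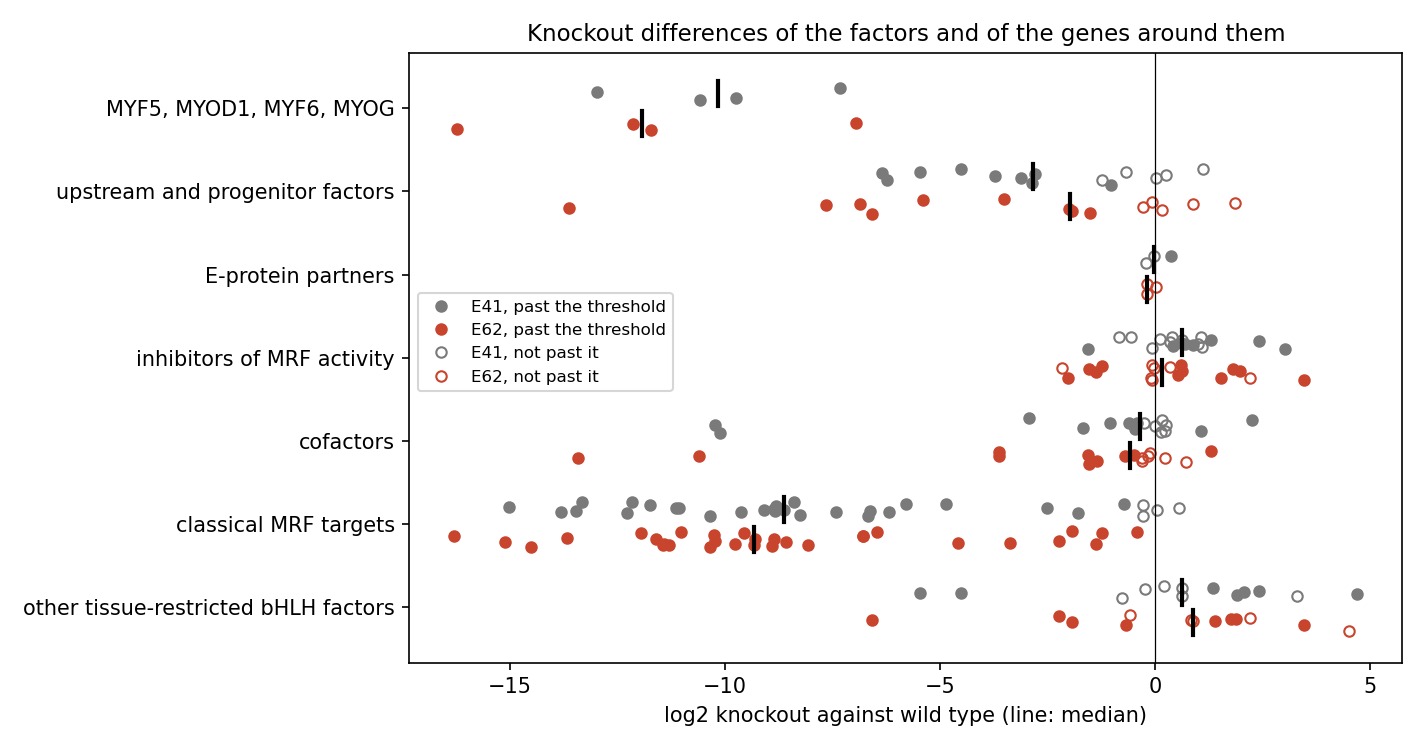
Log2 knockout against wild type (E41 grey, E62 red) for the 4 factors and for the genes of 6 lists around them; filled points passed the test, open points did not, and black lines are medians. Where a group held 0 to 3 counts, the plotted value is the floor or the pooled ratio. The 3 E-protein partners lie near 0, while the classical targets have medians of -8.63 and -9.32.

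The genes that act on or with the factors were divided by role. Over all genes tested, 18.5% were higher and 20.8% lower in the knockout at E41, and 21% higher and 26.2% lower at E62. Of 14 upstream and progenitor factors, 9 were lower and 0 higher at each stage (64.3% changed, against 39.2% and 47.2% of all genes), with a median log2 difference of -2.83 at E41 and -1.96 at E62, against 0.09 and 0.06 over all genes. The repressor MSC, which binds E boxes, changed by -5.47 ± 0.67 and -6.59 ± 0.70. PAX3, which acts upstream of the factors in the limb, did not pass at either stage (1.11 ± 0.88, edgeR adjusted p = 0.35, and 1.86 ± 0.98, adjusted p = 0.15).

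Of the 3 E-protein partners, 1 passed the test at E41 and 0 at E62. TCF12 had 352 to 367 CPM in wild-type E41 and 309 to 317 CPM in knockout E41 (log2 -0.20 ± 0.10, edgeR adjusted p = 0.14), and -0.19 ± 0.10 at E62. TCF4 differed by -0.02 ± 0.09 and 0.02 ± 0.09. TCF3 rose by 0.37 ± 0.10 at E41 (adjusted p = 0.019), a call lost without wild-type E41 replicate 1 (0.066), wild-type E41 replicate 2 (0.056) or knockout E41 replicate 1 (0.13), and differed by -0.18 ± 0.10 at E62. With library-size scaling the signs of TCF12 at both stages, TCF4 at E41 and TCF3 at E62 turned positive, and TCF4 at E62 passed the test (0.32).

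Of 18 inhibitors of the factors tested, 7 were higher and 1 lower at E41, and 7 higher and 4 lower at E62. The share that changed was 44.4% at E41, near the 39.2% of all genes, and 61.1% at E62, against 47.2%. ID4, an E-protein sequestering factor, went from 1.3 and 1.28 CPM to 12.4 and 8.77 CPM at E41 (3.03 ± 0.27, edgeR adjusted p = 0.00018), and ID2 rose by 0.88 ± 0.11 and 1.54 ± 0.11. MDFI, which holds the factors in the cytoplasm, rose by 1.30 ± 0.15 at E41, while the Notch effector HEYL fell at both stages (-1.56 ± 0.25 and -2.02 ± 0.25).

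Of 16 cofactors, 8 were lower and 2 higher at E41, and 9 lower and 1 higher at E62 (62.5% changed at each stage, against 39.2% and 47.2% of all genes). With library-size scaling alone, which moves the median of all genes by 0.29 at E41 and 0.305 at E62, the E41 split was 6 lower and 6 higher. MEF2C, the partner of the factors on muscle promoters, changed by -2.93 ± 0.14 and -3.63 ± 0.14, and VGLL2 was at least 10990-fold lower at E62.

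Of 31 classical targets tested, 27 were lower and 0 higher at E41 and all 31 lower at E62 (1 higher at E41 and 30 lower at E62 with library-size scaling). These are 87.1% and 100% changed, against 39.2% and 47.2% of all genes. MYL1 changed by -13.82 ± 0.25 at E41, CDH15 by -7.41 ± 0.16 and MUSK by -9.63 ± 0.19. In wild type 15 of 31 rose from E41 to E62 and 1 fell (51.6% changed, against 39.8% of all genes, of which 19.8% were higher and 20% lower), with a median of 1.00, which lies between the fitted rise of MYOD1 and that of MYF6. Among 13 other tissue-restricted bHLH factors tested, of 38 listed, 5 were higher and 2 lower at E41 and 4 and 4 at E62 (53.8% and 61.5% changed, against 39.2% and 47.2% of all genes). MSC, TCF21, BHLHA15, TWIST1 and TWIST2 each stand in 2 of these lists.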

How the data were processed

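The deposited table gives the authors' estimated counts (expected counts) per Ensembl gene, as whole numbers for each library. Tools and builds named by the submitters' processing notes are kallisto, DESeq2, Sscrofa11.1 and susScr11, with no role or version. No source used here gives the annotation release or the strand. Columns were joined to samples by library name and groups taken from sample titles. Symbols were found for 15527 of 22516 identifiers. Counts were rounded, filtered with filterByExpr (minimum count 10), and given TMM factors. The edgeR model (version 4.0.16, under R 4.3.3) had a mean for each group, used all 8 libraries and left 4 residual degrees of freedom. Tests were two-sided quasi-likelihood F tests with Benjamini-Hochberg adjustment over 17020 genes and a threshold of 0.05. The standard error is the change divided by the square root of F, which can be too small where counts are few. A group at 0 was set to a floor of 3 counts, and a group with 1 to 3 counts gave a pooled ratio with its interval. Alternatives used DESeq2 1.42.0, limma 3.58.1 and others listed in the closing section. Steps were tested on simulated data. The members and gene lists were chosen with earlier results of these data known. Named were the 4 factors, PAX3, PAX7, the E-protein partners, the 3 nearest RefSeq protein-coding genes with a row on each side of each factor, the 5 most alike genes per factor and, in each list, as many as 4 genes of lowest p plus at most 2 that passed in the minority direction. Not all of these are given values. USH1C was too low to test.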

Additional observations from a re-analysis of the deposited data

Results flagged for a closer look

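Of 55 named genes with more than 3 counts in every group, 12 had a knockout effect that differed between E62 and E41 by the interaction test (edgeR adjusted p under 0.05, n = 2 per group). This is 21.8%, against 26.8% of all genes tested, which were not held to that limit on counts. The count is thus not read as a result about the named genes. Named genes left out by the limit include PAX7, VGLL2 and TCF21, which passed the same edgeR test (adjusted p = 0.025, 0.0098 and 0.048). MYOD1, the member of the 4 factors with enough counts, was not among the 12. The effect was more negative at E62 for LBX1 (difference -3.94 ± 0.58, adjusted p = 0.0032), CKM (-2.63 ± 0.24, 0.00092), SLN (-2.39 ± 0.38, 0.0042), CDH15 (-2.35 ± 0.23, 0.00099), TEAD4 (-1.96 ± 0.20, 0.0011) and MYBPH, near MYOG (-1.7 ± 0.35, 0.01). It was also more negative for C4orf54 (-1.63 ± 0.28, 0.0056), HES1 (-1.48 ± 0.29, 0.0097), SIX4 (-0.9 ± 0.27, 0.046), MEF2C (-0.7 ± 0.18, 0.025) and the partner TCF3 (-0.55 ± 0.14, 0.022). Among the 12, ID2 had the positive difference (0.65 ± 0.15, 0.016).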

How the results depend on the processing

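Alternatives were DESeq2, limma-voom, scaling by library size alone, by relative log expression or by TMM on genes in no list, testing without a low-count filter or with 1 CPM required in 2 libraries, only the groups compared, the replicate number as a block, and each library left out; with a lone library in a group its spread is assumed to be that of the others. For the 4 factors, 232 of 237 alternative values kept direction and side of the threshold. The exceptions were MYF5 from E41 to E62 in wild type (DESeq2 0.68, limma-voom 0.64, 0.39 to 1.03 leaving out a library) and MYOD1 over the same interval in the knockout (limma-voom 1.3, 1.09 to 1.57 leaving out a library). Bounds of MYF5 and MYF6 fell about 1 log2 unit when 1 knockout library was left out, to -9.58 and -8.73 at E41 and -10.63 and -11.05 at E62, since the floor of 3 counts then stands against the depth of 1 library. Leaving out a library gave 3927 to 6720 changed genes at E41 (6678 with all), 4491 to 6885 for wild-type stages (6782), 1906 to 5022 for knockout stages (5126) and 2499 to 4282 for the difference of effects (4553). It gave 0 to 1 changed E-protein partners and 4 to 7 changed other bHLH factors at E41, and a MYF5:MYOG shift of -0.3 to 0.2. With library size alone, 73.6% of changed genes were higher at E41 (47.1% with TMM) and 69.4% at E62 (44.5%), 1 E-protein partner changed at E62, and signs turned for TCF3 at E62 (0.12), TCF4 at E41 (0.27) and TCF12 (0.09 and 0.11). TCF4 also turned at E41 with the 1 CPM filter (0.02) and leaving out a library (-0.12 to 0.08, with 0.05 and 0.01 among the positive values), and at E62 leaving out a library (-0.01 to 0.04, including 0). The replicate block gave 6114 and 7512 changed genes at E41 and E62 and changed no call of the 4 factors. Same-numbered libraries correlated at -0.25 to 0.0972 in their deviations, so the numbers were not taken to pair samples. Counts of 0 to 3 limit the folds of MYF5, MYF6 and MYOG.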

Other observations

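Some classical targets of the factors rose with stage in the knockout, and about as many fell. A link to the remaining MYOD1 transcript was not tested. Of 31 tested, 7 were higher and 8 lower at E62 than at E41 in the knockout (edgeR adjusted p under 0.05, against 12.1% and 18% of all genes). The share that changed was 48.4%, against 30.1% of all genes. The median log2 difference was 0.08, against -0.03 over all genes. CHRNA1, the alpha subunit of the muscle acetylcholine receptor, went from 0.689 and 0.369 CPM to 1 and 1.89 CPM. The embryonic myosin MYH3 went from 51 and 42 counts to 135 and 110 counts. DES, the intermediate filament of muscle, went the other way, from 21.8 and 17.6 CPM to 5.05 and 7.74 CPM. The light chain MYL4 had 0 and 3 counts in knockout E41, and 2 and 76 in knockout E62, so nearly all of its E62 counts come from 1 library, and it did not pass the test.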
